A study of Homo sapiens with 9 samples.

Results

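Of 1822 genes on the array whose symbols mark a long intergenic, antisense, divergent or intronic noncoding RNA, 266 (14.6%) reached a mean signal of 1000 or more in at least 1 of 3 kinds of vesicle released by human embryonic stem cells. Symbols were taken that begin with LINC and digits, for long intergenic noncoding RNAs, or that end in -AS1 or -AS2, for antisense, in -DT, for divergent transcript, or in -IT1, for intronic transcript. The signal is the MAS5 intensity that the authors deposited, read on the gene's brightest probe set. Among the 266 are 126 LINC genes, 100 antisense, 39 divergent and 1 intronic transcript, NPTN-IT1. All but TNRC6C-AS1 and ERICH1-AS1 were matched to RefSeq, which lists 263 of these 264 as lncRNA and 1 as antisense RNA. The levels chose these genes, so their levels and the differences between group means below are a description, and no statement rests on them as a test.

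The vesicles came from H9, a human embryonic stem cell line grown without serum or feeder cells in mTeSR1 medium on Matrigel, and no group received a treatment. MVs (microvesicles) are the pellet of a spin at 16500g for 1 h, after clearing spins at 300g and 2800g, though the sample descriptions of MVs give 200g for the first. EXOs (exosomes) were pelleted from what remained, at 120000g for 2 h. The non-fractionated hESEVs skipped the 2800g and 16500g spins and were pelleted at 120000g for 2 h per the labels, whereas the paper's methods give another spin. Each group has 3 HG-U133 Plus 2.0 arrays, which hold probe sets for 19775 genes that could be tested. Each pellet is a mixture of particles defined by a spin, from 1 cell line. Each array received 12.5 μg of amplified RNA and was scaled to a mean of 500, so a signal is relative to the other RNAs of its pellet. A lower signal can mean fewer vesicles that carry an RNA, less of it in each, or more of other RNAs, and these cannot be told apart. By electrophoresis the paper also found longer RNAs in MVs than in EXOs, and the part of RNA length in the signals was not tested.

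Long noncoding RNAs are transcribed like mRNAs, and most are capped and spliced, but they do not code for a known protein. An antisense transcript is read from the strand opposite a gene and overlaps it, whereas a divergent transcript starts next to a gene's promoter and runs away from it. Some regulate the neighbouring gene, some act elsewhere in the nucleus or cytoplasm, some mainly host small nucleolar RNAs in their introns, and for many no function is known. They are generally less abundant than mRNAs, and many stay in the nucleus of the cell.

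Most of the 266 RNAs lay close to the threshold. In 189 the highest group mean was under 1500, and 15 had a mean of 2000 or more over the 9 arrays. The median level was 831 in MVs, 1204 in EXOs and 1114 in hESEVs. EXOs reached 1000 for 234 of the RNAs, hESEVs for 178 and MVs for 86. All 3 groups reached it for 73 RNAs, 2 groups for 86, and 1 group for 107, which was EXOs for 80, hESEVs for 20 and MVs for 7. On every array the signal was at least 1000 for 39. The highest mean was in EXOs for 175 RNAs, in hESEVs for 73 and in MVs for 18, and the hESEVs mean lay between those of MVs and EXOs for 164. The median coefficient of variation between arrays of a group was 18.2% in MVs, 16.9% in EXOs and 16.6% in hESEVs. Just inside the threshold lay LINC01018, with a highest group mean of 1001, HHIP-AS1 with 1002 and SKOR1-AS1 with 1003. Just outside lay LINC02712 with 996, LINC01278 with 994 and MAP3K9-DT with 993.6.

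A signal of 1000 did not stand for the same distance from background in each group. The background level was taken as the 90th percentile of 51 genes that are restricted to tissues other than stem cells, and it was 719 in MVs, 1267 in EXOs and 1213 in hESEVs. The size of any fold below is uncertain where a group mean lay under this level. Above it were 180 of the noncoding RNAs in MVs, 111 in EXOs and 107 in hESEVs. In all 3 groups 87 were above it, in 2 groups 31, in 1 group 75 and in none 73. The summed signal of the tissue-restricted genes ran from 18823 to 20569 on the MVs arrays, from 28297 to 29919 on the EXOs arrays and from 27013 to 29874 on the hESEVs arrays. Of 12 measured markers of stem cells, 12 exceeded the background level in MVs, 6 in EXOs and 10 in hESEVs. By limma, described below, 11 of the 12 stem cell markers were called higher in MVs than in EXOs, beside 11.9% of all genes. None of 11 neuron and glia markers was called between MVs and EXOs, and of 7 fibroblast markers 1, COL1A1, was called higher in MVs.

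The 3 highest mean signals over the 9 arrays came from probe sets of divergent transcripts. Probe sets differ in how they bind, so a higher signal on one than on another does not say that there was more of that RNA. NEK2-DT, named after the mitotic kinase gene NEK2, gave 9606, 9917 and 6797 on the MVs arrays, 11964, 11946 and 12164 on the EXOs arrays, and 11865, 8766 and 9020 on the hESEVs arrays. All its EXOs arrays were above its MVs arrays, and the EXOs arrays varied least. STX17-DT, which lies beside the gene for an autophagosome syntaxin, gave 8379, 7351 and 6263 in MVs, 7778, 5713 and 8553 in EXOs, and 9866, 7114 and 9009 in hESEVs, so that the 3 groups overlapped. After quantile normalization, however, its log2 fold change, MVs minus EXOs, was −2.37. FAM86B2-DT had means of 6438 ± 154 in MVs, 8199 ± 797 in EXOs and 6311 ± 845 in hESEVs (SD, n = 3 arrays each). PGM5-AS1 was at 2904 ± 157 in MVs, 4304 ± 238 in EXOs and 3037 ± 394 in hESEVs. ATP6AP1-DT, named after an accessory subunit of the vacuolar proton pump, was at 2274 ± 142, 3189 ± 144 and 3403 ± 589.7 in the same order. LINC01410, LINC00957, LINC02256, TNRC6C-AS1 and LINC00491 had means over all arrays from 2512 to 2849.7 and their lowest group mean in MVs or, for TNRC6C-AS1, in hESEVs.

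Probe sets whose names end in _x_at may bind several similar sequences, and they also occur among these RNAs. They read 21 of the 266 RNAs (7.89%), beside 6.38% of all genes and 11.1% of all genes that reach 1000. Of the 15 RNAs with a mean of 2000 or more, 5 are read by one, among them NEK2-DT, LINC02256 and TNRC6C-AS1. The median level over 9 arrays was 1376 for the 21 and 1009.8 for the other RNAs. The part of cross-binding in these levels was not tested.

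**Figure D1:**
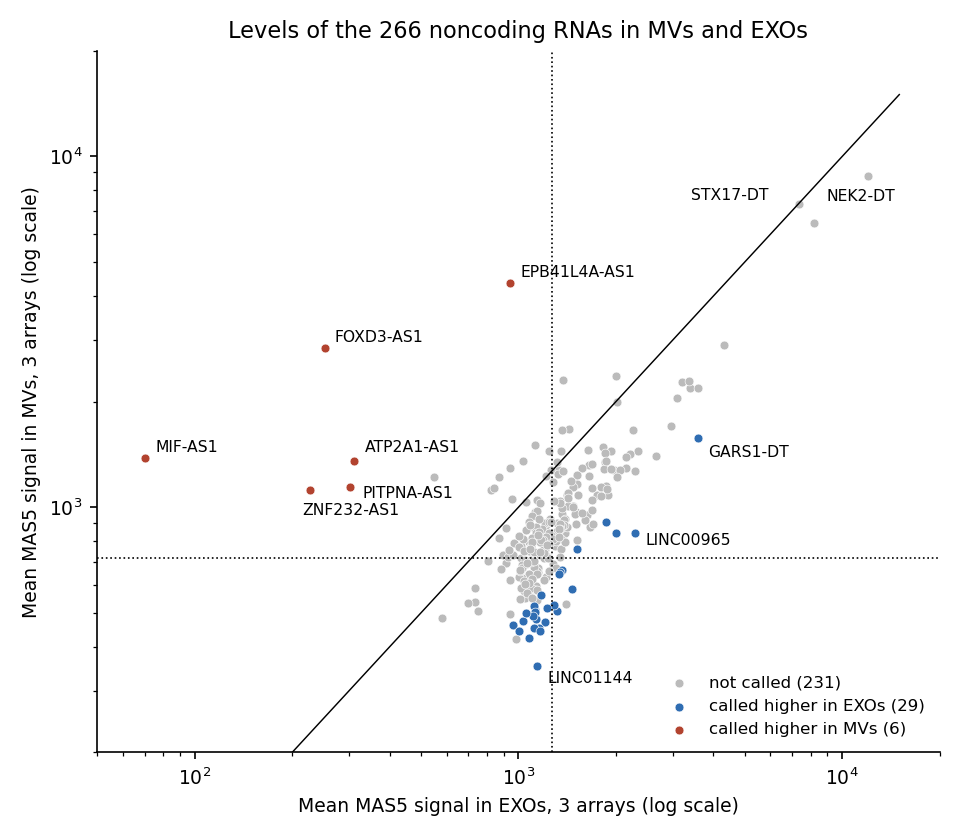
Mean MAS5 signal of each of the 266 noncoding RNAs in EXOs (x axis) and MVs (y axis), 3 arrays each, both axes logarithmic, with the line of equal signal and dotted lines at the background levels of 1267 in EXOs and 719 in MVs. Most points lie below the line of equal signal, the 6 RNAs called higher in MVs (red) stand to its left with EXOs means under the background level, and the 29 called higher in EXOs (blue) mostly have EXOs means just above 1000.

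MVs were then set against EXOs, which asks whether their levels differed between the heavier and the lighter fraction. A gene was called when its limma p, Benjamini-Hochberg adjusted over all 19775 genes, was under 0.05 and its fold at least 2. All 266 RNAs were tested, with no filter on low signals. MVs were higher for 6 of them, beside 11.9% of all genes, and EXOs for 29, beside 2.86% of all genes. Among all 6056 genes that reached 1000 in some group the shares were 32.4% and 4.1%. The remaining 231 were not called, which does not mean that their levels were equal. The arrays of the 2 groups did not overlap for 9 RNAs higher in MVs (18.9% of all genes) and for 161 higher in EXOs (22.6% of all genes). The log2 fold change, MVs minus EXOs, was negative for 239 of the 266 and positive for 27, with a median of −0.60, while the median over all genes was −0.23. It was −0.62 for the LINC genes, −0.57 for the antisense and −0.57 for the divergent transcripts. These shares follow in part from the rule, since 80 RNAs reached 1000 in EXOs alone. The 1556 genes with the same kinds of name that stayed under 1000 in every group had a median of −0.50, and the tissue-restricted genes one of −0.52, with 3 of 51 called higher in EXOs. The split of calls depended on the scaling, with 7 higher in MVs and 11 in EXOs when each array was centred on its median, and 6 and 56 after quantile normalization. Without EXOs replicate 1 the number higher in EXOs fell to 17 and without EXOs replicate 2 to 18. Centring moved the median of all genes to 0.00 and that of the 266 to −0.37, and quantile normalization gave −0.12 and −0.67.

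All 6 RNAs called higher in MVs are antisense transcripts, and each was above the background level in MVs and below it in EXOs, so the sizes of these folds are uncertain. For each the hESEVs mean lay between the 2 fractions, and 4 of them reached 1000 in MVs alone. MIF-AS1, antisense to the cytokine gene MIF, gave 1299, 1601 and 1247 on the MVs arrays, 65.1, 84.3 and 60.9 on the EXOs arrays, and 739, 679 and 534 on the hESEVs arrays. These groups were fully apart, with a log2 fold change of 4.31 ± 0.42 (SE, n = 3 arrays each), or 19.8-fold on the signals as given. FOXD3-AS1 is transcribed next to FOXD3, the gene of a forkhead transcription factor of pluripotent and neural crest cells. It gave 2499, 3126 and 2879.5 in MVs, 86.2, 352 and 318 in EXOs, and 1378, 1150.4 and 1101 in hESEVs. It was 13.3-fold higher in MVs (log2 fold change 3.73 ± 0.50, SE), and again no 2 groups overlapped.

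EPB41L4A-AS1, a transcript that hosts a small nucleolar RNA, had the highest signals of the 6, at 4289, 4251 and 4512 in MVs. It gave 788, 1174 and 856 in EXOs and 2025, 1956 and 1910.3 in hESEVs. The 9 arrays fell into 3 separate levels in the order MVs, hESEVs, EXOs, and MVs exceeded EXOs 4.70-fold (log2 fold change 2.23 ± 0.16, SE). ZNF232-AS1, antisense to a zinc finger gene, gave 925, 1189.9 and 1236 in MVs and 342, 272 and 69.4 in EXOs, a 5.95-fold difference whose call was lost without any 1 of the MVs arrays. ATP2A1-AS1, antisense to the gene of a muscle calcium pump, gave 1094, 1602 and 1379 in MVs against 183, 479.5 and 270.1 in EXOs, a 4.67-fold difference. PITPNA-AS1, antisense to the gene of a phosphatidylinositol transfer protein, gave 979, 1389 and 1048 in MVs against 201, 333 and 368 in EXOs, a 3.86-fold difference. In none of these 3 did an EXOs array reach an MVs array.

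The RNAs higher in EXOs differed by less. Their folds ran from 2.01 to 3.72 with a median of 2.29, and their EXOs means from 965 to 3584 with a median of 1165. Of the 29, 19 reached 1000 in EXOs alone, 8 in EXOs and hESEVs and 1 in MVs as well. Of these 29, 11 were above the background level in EXOs and 5 above it in MVs, and 18 were above it in no group. They comprise 13 LINC genes, 13 antisense and 3 divergent transcripts. In 26 the hESEVs mean lay between those of the 2 fractions.

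LINC00965 was at 989.8, 1094 and 452 in MVs against 1719, 2541 and 2609 in EXOs (2.85-fold), with the means of both groups above the background level. The value of 3.72 was that of LINC01144, with 146, 606 and 303 in MVs against 1251, 822 and 1344 in EXOs, but its means were under the background level in both groups. Its MVs arrays were spread over more than the gap to the EXOs arrays, and the SE of its log2 fold change was 0.50. CARD8-AS1, antisense to an inflammasome gene, gave 354, 269.9 and 789 in MVs against 901, 1270.0 and 1462 in EXOs (2.81-fold), again with both means under the background level. In all 3 of these the groups were apart, by a narrow margin for CARD8-AS1. The call of LINC01144 was lost without any 1 MVs or EXOs array other than MVs replicate 2, that of CARD8-AS1 without any 1 other than MVs replicate 3, and that of LINC00965 without EXOs replicate 2 or 3.

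Among the 10 with the largest folds, IQCH-AS1 and LINC01141 varied least between EXOs arrays. IQCH-AS1 gave 1137, 1174 and 1183 in EXOs against 559, 358 and 414 in MVs (2.67-fold). LINC01141 gave 1131, 1119.9 and 1226 in EXOs against 295, 604 and 455 in MVs (2.67-fold). The means of both RNAs were under the background level in MVs and in EXOs. IQCH-AS1 was the 1 RNA of the 29 that kept its call under every alternative that was run. LINC01992, MORC2-AS1, LINC01094, LINC02604 and ARRDC3-AS1 were 2.67-, 2.62-, 2.52-, 2.51- and 2.49-fold higher in EXOs, with EXOs means from 1079.7 to 1311, and of these MORC2-AS1 and LINC01094 were above the background level in EXOs and none in MVs. MORC2-AS1 and LINC02604 kept the call when any 1 MVs or EXOs array was left out. LINC01992 lost it without MVs replicate 1 or EXOs replicate 1 or 3, LINC01094 without MVs replicate 2 or EXOs replicate 3, and ARRDC3-AS1 without replicate 1 or 2 of either group.

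GARS1-DT was the 1 RNA called among the 73 that reached 1000 in all 3 groups. It was higher in EXOs (1.37% of the 73, beside 2.86% of all genes) and had the highest EXOs mean of the 29. It lies next to GARS1, the gene of glycyl-tRNA synthetase, and gave 1237, 1668 and 1825 in MVs, 3497, 4021 and 3233 in EXOs, and 3621, 3379 and 3517 in hESEVs. EXOs and hESEVs overlapped and both lay above MVs, by 2.29-fold (log2 fold change 1.20 in size, SE 0.16) for EXOs. The call was lost with arrays centred on their median (log2 fold change −0.96) and on the average of the gene's probe sets (−0.53). Among the other 72 the log2 fold change went up to 0.75, and their median with GARS1-DT was −0.42. The 87 RNAs above the background level in all 3 groups included 5 called higher in EXOs, beside 2.86% of all genes, and had a median of −0.58. That 0 of them were called higher in MVs restates that the 6 RNAs so called lay under the background level in EXOs.

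**Figure D2:**
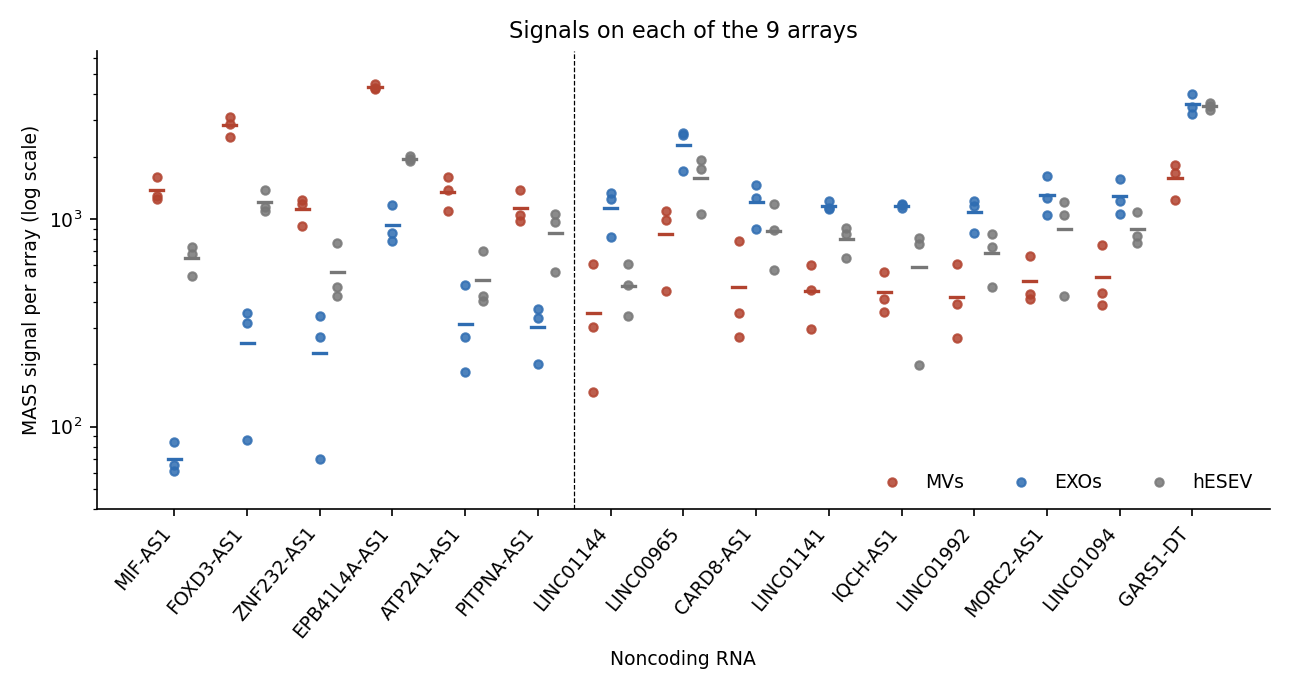
MAS5 signal on each array (points, log axis) and the group mean (bars) for the 6 RNAs called higher in MVs (left of the dashed line), and for the 8 with the largest fold toward EXOs and GARS1-DT (right). On the left the EXOs arrays, from 60.9 to 1174 across the 6 RNAs, lie below the MVs arrays of the same RNA. On the right the EXOs arrays lie above the MVs arrays of the same RNA, with hESEVs mostly between.

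The RefSeq promoters of members that stand out are shown because starts and CpG content are measures the rule did not use. Each run below covers 250 bases before to 50 bases after the start site in GRCh38.p14, written 5′ to 3′ on the transcribed strand, with CG dinucleotides in capitals. FOXD3-AS1 (chr1:63322409-63322708, minus strand) and PITPNA-AS1 (chr17:1516669-1516968, plus strand) are called higher in MVs and dense in CG, with 33 and 40 of them. EPB41L4A-AS1 (chr5:112160276-112160575, plus strand), also higher in MVs, holds 7, and GARS1-DT (chr7:30577730-30578029, minus strand), higher in EXOs, holds 2. For MIF-AS1 none is shown.
FOXD3-AS1: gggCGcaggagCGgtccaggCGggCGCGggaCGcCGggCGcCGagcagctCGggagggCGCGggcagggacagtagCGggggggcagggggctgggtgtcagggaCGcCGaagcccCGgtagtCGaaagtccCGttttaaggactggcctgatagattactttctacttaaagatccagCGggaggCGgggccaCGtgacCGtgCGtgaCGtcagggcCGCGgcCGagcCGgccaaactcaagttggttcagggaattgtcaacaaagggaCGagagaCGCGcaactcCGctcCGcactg
PITPNA-AS1: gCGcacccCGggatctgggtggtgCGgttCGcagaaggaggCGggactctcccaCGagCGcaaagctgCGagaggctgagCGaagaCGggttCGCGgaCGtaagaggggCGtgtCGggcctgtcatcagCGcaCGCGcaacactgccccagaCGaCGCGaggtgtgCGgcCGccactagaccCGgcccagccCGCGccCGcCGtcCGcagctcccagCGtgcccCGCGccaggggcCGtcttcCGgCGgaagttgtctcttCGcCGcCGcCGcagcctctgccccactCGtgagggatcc
EPB41L4A-AS1: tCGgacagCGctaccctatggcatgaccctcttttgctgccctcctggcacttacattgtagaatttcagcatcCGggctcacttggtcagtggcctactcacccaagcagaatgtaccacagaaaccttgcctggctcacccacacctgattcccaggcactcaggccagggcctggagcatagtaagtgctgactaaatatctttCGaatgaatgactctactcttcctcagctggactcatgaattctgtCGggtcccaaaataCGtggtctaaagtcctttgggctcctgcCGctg
GARS1-DT: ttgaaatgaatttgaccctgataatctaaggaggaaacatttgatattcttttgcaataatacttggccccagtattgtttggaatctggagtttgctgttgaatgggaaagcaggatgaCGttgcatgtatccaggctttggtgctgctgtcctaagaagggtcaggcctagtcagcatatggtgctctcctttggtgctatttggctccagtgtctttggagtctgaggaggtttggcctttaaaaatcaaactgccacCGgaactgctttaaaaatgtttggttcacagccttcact

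None of these 4 promoters holds the GC box GGGCGG, the CCAAT box CCAAT or the TATA box TATAAA on either strand. Of the 266 RNAs 201 have a promoter sequence in RefSeq, and 44.3% of these hold the GC box, 38.8% the CCAAT box and 12.9% the TATA box. The shares over all 27305 RefSeq promoters of the same length are 44.6%, 35.7% and 12% in that order. The classes differed more than the whole set did. In the 93 LINC promoters the GC box was found in 31.2% and the TATA box in 20.4%, with a median of 5 CG dinucleotides. In the 75 antisense promoters these were 50.7%, 6.67% and 19, and in the 32 divergent promoters 68.8%, 6.25% and 30. The median over all promoters is 14. For the 22 RNAs called higher in EXOs that have a sequence the median was 15.5, and for the 5 called higher in MVs it was 33. Those 5 are all antisense, and a link between CG content and fraction was not tested. A match describes the letters of the window and no binding.

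Where both start sites are known, the noncoding RNAs sit opposite their neighbours as their names say. Of 31 divergent transcripts 31 start on the strand opposite the gene they are named after, and 28 of them within 1000 bases of its start, at a median distance of 204 bases. Of 56 antisense transcripts 56 are on the opposite strand and 25 start within 1000 bases, with a median of 1554. FOXD3-AS1 starts 109 bases from FOXD3, whereas the starts of GARS1-DT and GARS1 are 16956 bases apart, those of PITPNA-AS1 and PITPNA 45873, and those of EPB41L4A-AS1 and EPB41L4A 258751.

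The differences of the genes beside these RNAs were compared with their own. A measured gene with the symbol that remains when the suffix is taken off was found for 125 of the RNAs, which makes 124 genes, none of them chosen by level. MVs were higher for 25 of them (20.2%, beside 11.9% of all genes) and EXOs for 2, BAIAP2 and LGALS8 (1.61%, beside 2.86%), and their median log2 fold change was −0.01. Of the 25, 21 had an EXOs mean under the background level. The 125 noncoding RNAs had a median of −0.59, with 6 called higher in MVs and 14 in EXOs. The log2 fold change of the gene was above that of its noncoding RNA in 93 of the 125 pairs. This count follows in part from the rule, since 80 of the 266 RNAs reached 1000 in EXOs alone. The median over all genes was −0.23. Across the pairs Pearson's r of the 2 log2 fold changes was 0.18, and 0.03 without the MIF pair (124 pairs), given as a description of pairs measured on the same arrays.

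In 4 pairs the noncoding RNA was called higher in EXOs and the gene higher in MVs. GARS1 was at 6066 ± 351 in MVs and 1759 ± 331 in EXOs (SD, n = 3 arrays each), 3.49-fold higher in MVs (limma adjusted p = 4.1e-05), while GARS1-DT was higher in EXOs. TSC22D1, a transcriptional regulator, was 3.98-fold higher in MVs (adjusted p = 0.00032), with 1809 ± 334 against 455 ± 80.0, and TSC22D1-AS1 was higher in EXOs. MORC2, a chromatin ATPase, was 4.06-fold higher in MVs (adjusted p = 0.046), and MICB, a ligand of an activating receptor of natural killer cells, 2.34-fold (adjusted p = 0.027). The EXOs means of TSC22D1, MORC2 and MICB were under the background level. The calls of the noncoding RNAs in these pairs depended on the setting. That of GARS1-DT was lost in the settings given above. TSC22D1-AS1 lost it without MVs replicate 1 or EXOs replicate 1 or 2 and on the average of its probe sets (log2 fold change −0.55). MICB-DT lost it without MVs replicate 2 or 3 or EXOs replicate 2 and after quantile normalization. By the methods' t-test with Benjamini-Hochberg adjustment TSC22D1-AS1, MICB-DT and MORC2-AS1 lost it. TSC22D1-AS1 and MICB-DT also lost it by eBayes without trend. In 1 pair, LGALS8-AS1 and the galectin gene LGALS8, both were called higher in EXOs, the gene 2.83-fold.

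MIF and ZNF232 were called higher in MVs together with their antisense RNAs. MIF was at 32919 ± 3174 in MVs, 1669 ± 275 in EXOs and 9881 ± 1643 in hESEVs (SD, n = 3 each), 19.8-fold higher in MVs (adjusted p = 2.7e-07). The probe set of MIF-AS1 ends in _s_at, a mark for probe sets that can match transcripts of more than 1 kind, and the part of MIF mRNA in its signal was not tested. ZNF232 was 3.77-fold higher in MVs (adjusted p = 0.0019) with an EXOs mean under the background level, and the probe set of ZNF232-AS1 also ends in _s_at. The other 4 RNAs higher in MVs have neighbours that were not called. FOXD3 was at 409 ± 53.7 in MVs and 453 ± 134 in EXOs, under the background level in both, while the signal of FOXD3-AS1 in MVs, 2835 ± 316, was above it. EPB41L4A was at 497 ± 189 and 656 ± 66.1, ATP2A1 at 286 ± 129 and 512 ± 168, and PITPNA at 736 ± 292 and 449 ± 144 in the same order.

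In 19 pairs the gene was called higher in MVs and the noncoding RNA was not called. They include MORF4L2, a subunit of histone acetyltransferase complexes, at 15185 ± 394 in MVs against 2376 ± 82.0 in EXOs (6.39-fold, adjusted p = 2.3e-07), with MORF4L2-AS1 at 614 ± 98.5 and 1043 ± 85.9. SLC38A2, an amino acid transporter, was 6.01-fold higher in MVs (adjusted p = 9.1e-07) and SLC38A2-AS1 had a log2 fold change of −0.23. CNN3, an actin-binding calponin, was 6.58-fold higher (adjusted p = 2.8e-05) and CNN3-DT had −0.41. ITGB1, an integrin subunit, was 4.14-fold higher (adjusted p = 4.6e-05) and ITGB1-DT had −0.88. SLC38A2, CNN3 and ITGB1 had EXOs means of 1023, 321 and 1027, under the background level.

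**Figure D3:**
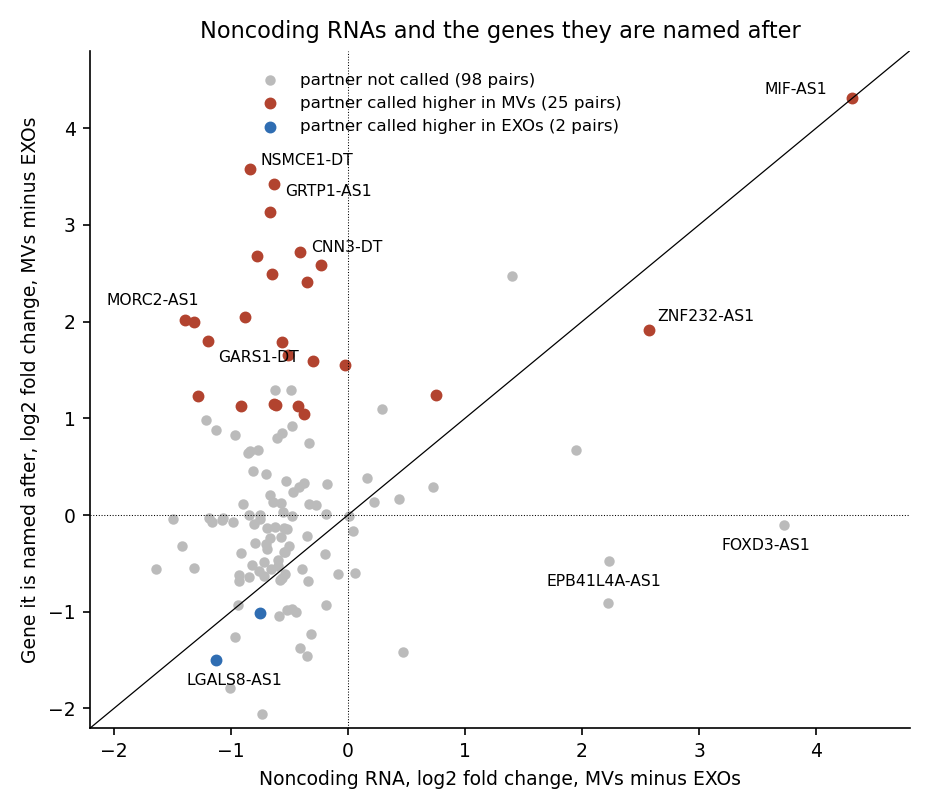
Log2 fold change, MVs minus EXOs, of each of 125 noncoding RNAs (x axis) and of the gene it is named after (y axis), coloured by the call of the gene, with the line of equal change and dotted lines at 0. The 25 pairs whose gene was called higher in MVs lie mostly at the upper left, where the noncoding RNA has a negative value, and the MIF pair lies on the line of equal change at 4.31.

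A further measure the rule did not read is the other probe sets of the same genes. For 112 of the RNAs there are 197 of them, each dimmer than the brightest by construction, with a median level of 372 over the 3 groups, and 19 were above the background level in MVs or EXOs. MVs were higher for 2 (1.02%, beside 7.23% of all probe sets) and EXOs for 10 (5.08%, beside 1.97%). Without any 1 array other than MVs replicate 3, EXOs were higher for 3 to 6 of them, and with any 1 array left out MVs were higher for 1 to 4. Their median log2 fold change was −0.46, and −0.29 over all probe sets. Negative values made up 140 of the 197, and the sign was that of the gene's brightest probe set in 138. Since 239 of the 266 brightest probe sets were negative too, most signs would match even between different genes. Of 23 other probe sets of RNAs called higher in EXOs 18 were negative and 2 were called higher in EXOs, those of LINC02481 (2.23-fold, limma adjusted p = 0.0088) and ERICH1-AS1 (6.64-fold, adjusted p = 0.033). The 2 other probe sets of RNAs called higher in MVs were not called.

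OIP5-AS1, a conserved noncoding RNA also known as Cyrano, and MAPKAPK5-AS1 were called higher in MVs on another probe set and not on their brightest. The OIP5-AS1 probe set was at 1769.7 ± 342 in MVs and 678 ± 154 in EXOs (SD, n = 3), 2.62-fold higher in MVs (adjusted p = 0.0058). The probe set of MAPKAPK5-AS1 was at 418 ± 106 in MVs and 86.1 ± 26.5 in EXOs (adjusted p = 0.038), under the background level in both. Its probe sets did not point one way, since the other 2 had log2 fold changes of −0.96 (108 in MVs and 240.3 in EXOs) and 0.87, neither called. Its brightest probe set gave 1503, 1305 and 859 in MVs against 256, 1045 and 343 in EXOs, which overlap.

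The other probe set of EPB41L4A-AS1 had a log2 fold change of −1.21 ± 0.99 (SE), at 191 ± 145 in MVs and 349 ± 192 in EXOs. Both means were under the background level and the SE was close to the value in size, so it gives no direction. BAIAP2-DT, PRKCQ-AS1 and ZSCAN16-AS1 had negative values on the brightest probe set, −0.75, −1.07 and −0.90, and 1.88, 1.24 and 1.38 on another, none of the latter called or above the background level. PRKCQ-AS1 was called higher in EXOs on its brightest probe set, with 1256, 1108 and 1166 against 454, 627 and 609 in MVs, a call lost without MVs replicate 1. The call was also lost after quantile normalization, with arrays centred on their median and on the average of its probe sets. Over the alternatives its log2 fold change ran from −1.16 to −0.02. MORF4L2-AS1 had −0.77 on its brightest and −2.97 on the other, which was called higher in EXOs (adjusted p = 0.0053) with the MVs mean near the floor of 32. The 7 other probe sets of GARS1-DT ran from −0.75 to 0.33, 6 of them negative and none called.

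**Figure D4:**
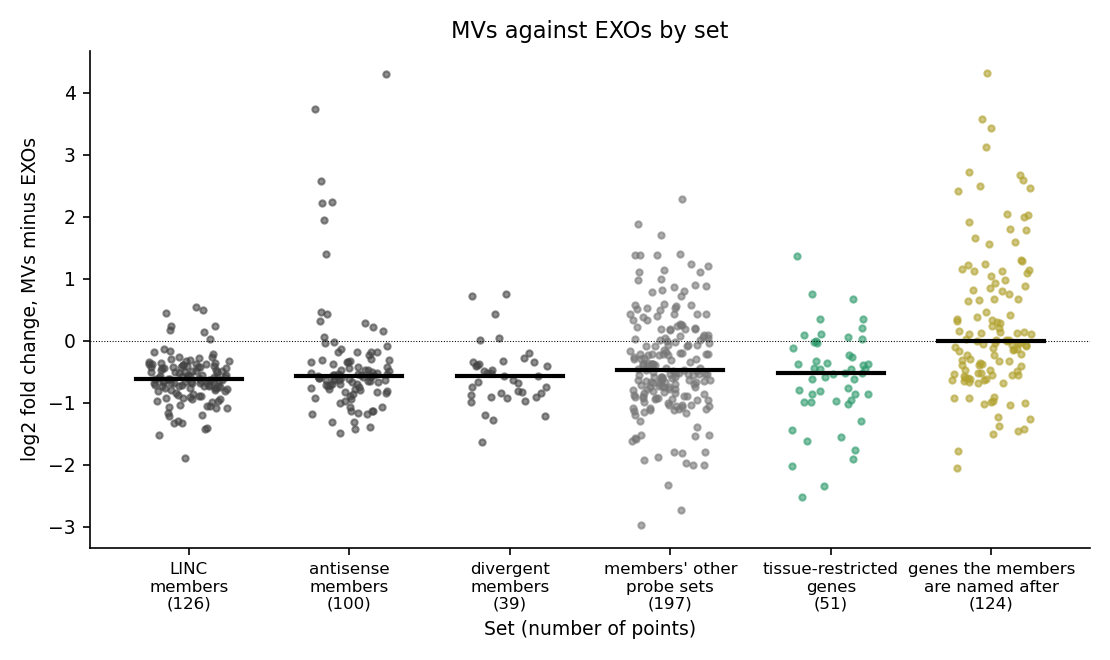
Log2 fold change, MVs minus EXOs, of single genes or probe sets (points, spread sideways for view) with the median of each set (bars). The LINC, antisense and divergent members have medians of −0.62, −0.57 and −0.57, their other probe sets −0.46 and the tissue-restricted genes −0.52, while the genes the members are named after have a median of −0.01 and a wide upper tail.

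One fit of the 9 arrays set the non-fractionated hESEVs against MVs and against EXOs, so that both comparisons use the same hESEVs arrays. Against MVs, 12 of the 266 RNAs were higher in hESEVs, beside 1.62% of all genes, and 3 higher in MVs, beside 7.41% of all genes. The median log2 fold change, hESEV minus MVs, was 0.43, and 0.15 over all genes. These values follow in part from the rule, since 20 RNAs reached 1000 in hESEVs alone and 7 in MVs alone. With each array centred on its median 2 were higher in hESEVs and 5 in MVs, so the balance of this split turned with the scaling. Quantile normalization gave 21 and 2. Without hESEV replicate 2, and likewise without hESEV replicate 3, 7 were higher in hESEVs.

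LINC01089 was called higher in hESEVs, with the means of all 3 groups under the background level. It gave 914, 662 and 1742 in hESEVs, 152, 157 and 74.8 in MVs, and 204, 164 and 792 in EXOs, a log2 fold change of 3.07 ± 0.66 (SE), hESEV minus MVs, whose size is uncertain. All hESEVs arrays were above all MVs arrays, while 1 EXOs array lay among the hESEVs arrays. Its probe set ends in _s_at, and another probe set of the gene had a log2 fold change of −0.997, not called. Without hESEV replicate 3, its brightest array, the call was lost. LINC00513 gave 1072, 861 and 1287 in hESEVs against 285, 332 and 649 in MVs (2.68-fold). GATD1-DT gave 1007, 1225 and 1471 against 668, 316 and 505 (2.57-fold), and LINC02223 1217, 1549 and 1437 against 449, 609 and 834 (2.28-fold). All 3 had MVs means under the background level, and LINC00513 its hESEVs mean as well. LINC00513 lost its call without any 1 hESEV array or MVs replicate 1 or 2, GATD1-DT without hESEV replicate 2 or 3 or MVs replicate 2, and LINC02223 without MVs replicate 1. By the methods' t-test with Benjamini-Hochberg adjustment all 3 lost it. LINC00513 and LINC02223 also lost it with arrays centred on their median and on the average of a gene's probe sets. GARS1-DT was 2.25-fold higher in hESEVs, with the values above, and lost the call with arrays centred on their median (log2 fold change 0.96) and on the average of its probe sets (0.43).

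Toward MVs, ATP2A1-AS1 was 2.72-fold, BTG1-DT 2.23-fold and EPB41L4A-AS1 2.22-fold higher than in hESEVs. BTG1-DT, named after an antiproliferative gene, gave 1069.6, 1061 and 1271 in MVs and 429, 532 and 568 in hESEVs, with 880.4, 943 and 705 in EXOs. Its hESEVs arrays were below all arrays of both fractions. ATP2A1-AS1 lost its call without any 1 MVs array or hESEV replicate 2 or 3.

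Against EXOs, 4 RNAs were higher in hESEVs, beside 3.40% of all genes, and 0 higher in EXOs, beside 0.172% of all genes. At a p not adjusted under 0.05 limma gave 7 and 7, and the methods' t-test gave 4 and 3. The 4 were also higher in MVs than in EXOs. They are MIF-AS1 at 9.29-fold (log2 fold change 3.22 ± 0.36, SE), FOXD3-AS1 at 5.66-fold (2.50 ± 0.43), PITPNA-AS1 at 2.85-fold (1.51 ± 0.33) and EPB41L4A-AS1 at 2.12-fold (1.09 ± 0.14). Their hESEVs arrays did not reach down to the EXOs arrays. PITPNA-AS1 lost its call without EXOs replicate 1 or hESEV replicate 1 or 2, and EPB41L4A-AS1 without EXOs replicate 1. By the methods' t-test with Benjamini-Hochberg adjustment only MIF-AS1 kept it. For all 266 the median was −0.15, and 0.00 over all genes. The rule has a part in this too, since 80 RNAs reached 1000 in EXOs alone and 20 in hESEVs alone. Quantile normalization gave 4 higher in hESEVs and 8 in EXOs, and without EXOs replicate 1 there were 2 higher in hESEVs.

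Noncoding RNAs outside the naming rule give a setting for these levels. Of a list of 31 long noncoding RNAs with names of their own, 17 were measured. Between MVs and EXOs 5 were called higher in MVs, beside 11.9% of all genes, and 2 in EXOs, beside 2.86%. The median log2 fold change of the 17 was −0.18, and −0.23 over all genes. MALAT1, an abundant nuclear RNA, was 22.1-fold higher in MVs (limma adjusted p = 3.6e-07), DANCR 19.7-fold (0.00087) and ZFAS1, a host of small nucleolar RNAs, 7.57-fold (7.8e-07). CYTOR was 2.30-fold (0.0059) and CASC2 2.23-fold (0.047) higher in EXOs. The EXOs means of MALAT1 and DANCR, 519 and 569, were under the background level, as were both means of CASC2. MALAT1 and ZFAS1 were read by probe sets whose names end in _x_at, and the part of cross-binding in their signals was not tested. A list of 13 noncoding RNAs linked to stem cells had 5 measured genes, of which none was called. Its 1 member among the 266, LINC00545, gave 1206, 1447 and 993 in MVs, 1045, 633 and 929.6 in EXOs, and 857, 861 and 673 in hESEVs, with MVs and EXOs overlapping.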

How the data were processed

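RNA of 9 vesicle samples (3 MVs, 3 EXOs, 3 hESEV) was hybridised to HG-U133 Plus 2.0 arrays. The authors deposited linear intensities, 1 for each probe set, scaled to a mean of 500, which the submitters' processing notes credit to MAS5, with a version not given in the sources used here. Precision is limited by the number of arrays. The 3 arrays of each group hold separate biological samples, per the paper's methods.

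Of 54675 probe sets, 62 controls were left out, 41091 had 1 gene in the platform annotation, 1801 several and 11721 none. Signals under 32 were raised to 32 and log2 was taken. Each gene was read on the probe set with the highest mean signal. limma 3.58.1 in R 4.3.3 (lmFit, eBayes with trend, two-sided) compared MVs with EXOs on 6 arrays and hESEV with each in a fit of 9. The fit of MVs against EXOs was run on simulated data with 200 of 19775 genes changed. It recovered 27% of them at a log2 change of 1.5 and 53% at 3, and called 4 unchanged genes at each size. In the data 2359 genes were called higher in MVs and 565 in EXOs, far more than were changed in the simulation. The recovered shares therefore need not hold for the data or for the 266 RNAs. A gene that was not called may still differ. The members and lists were chosen with earlier results of these data known. Named were the 12 brightest members, the 10 called with the largest folds each way between MVs and EXOs and 5 each way for hESEV, those in the stem cell list, 3 each side of the threshold, 6 with discordant probe sets, and the genes beside them. Other members named (TSC22D1-AS1, MICB-DT, LGALS8-AS1, SLC38A2-AS1, CNN3-DT, ITGB1-DT, OIP5-AS1, LINC02481, ERICH1-AS1) and their neighbours were chosen after their values were seen. Promoters and RefSeq types come from GRCh38.p14. Alternatives were other tests, scalings, floors, filters, probe sets, a replicate block and each array left out. Scripts ran in Python 3.11.15 with numpy 2.4.6, pandas 2.3.3 and, for plots, matplotlib 3.10.9.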

Additional observations from a re-analysis of the deposited data

How the results depend on the processing

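The rule gave 935 RNAs at a threshold of 500 and 28 at 2000, and from 263 to 275 when 1 array was left out. Higher in EXOs than MVs were 7 by the methods' t-test with Benjamini-Hochberg adjustment, 56 after quantile normalization, 11 with arrays centred on the median, 19 with a floor of 100, 14 by eBayes without trend, and 17 to 26 with 1 array left out (17 without EXOs replicate 1, 18 without EXOs replicate 2). Higher in MVs were 5 to 7 with 1 array left out. Between hESEVs and MVs, higher in hESEVs were 4 by the adjusted t-test, 21 after quantile normalization, 2 after centring, 4 on the average of a gene's probe sets, 7 without trend and 7 to 14 with 1 array left out (7 without hESEV replicate 2 or 3, 8 without MVs replicate 2). Higher in MVs were 5 with p not adjusted, 6 by the t-test with p not adjusted, 5 after centring, 6 on the 6 arrays alone and 2 to 3 with 1 array left out. Between hESEVs and EXOs, higher in hESEVs were 7 with p not adjusted, 1 by the adjusted t-test and 2 to 5 with 1 array left out (2 without EXOs replicate 1). Higher in EXOs were 7 with p not adjusted, 3 by the t-test with p not adjusted, 8 after quantile normalization, 3 among genes above the median signal, 1 on the average of probe sets and 0 to 2 with 1 array left out.

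Of the neighbouring genes, 1 was higher in EXOs after centring and 1 to 3 with 1 array left out, and 19 to 24 were higher in MVs. Of the other probe sets, 4 were higher in EXOs after centring, and with 1 array left out 3 to 10 in EXOs and 1 to 4 in MVs. The paper took MVs and EXOs from 3 cultures, but the sample titles do not say whether equal replicate numbers share a culture. Deviations of same-numbered arrays had correlations from −0.01 to 0.00, which cannot show that the arrays were unpaired. The main fits used no pairing. With the number as a replicate block, 6 and 25 RNAs were called between MVs and EXOs, 10 and 3 between hESEVs and MVs, and 4 and 0 between hESEVs and EXOs. The block left 1 neighbouring gene higher in EXOs, and 1 other probe set higher in MVs and 4 in EXOs.

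For named RNAs called in one setting at least, the sign turned in 5 cases. On the average of its probe sets EPB41L4A-AS1 had a log2 fold change, hESEV minus MVs, of 0.20. Without _x_at and _s_at probe sets LINC01089 had −0.997. After quantile normalization FAM86B2-DT had 1.04 (hESEV minus MVs), and STX17-DT −2.37 (MVs minus EXOs) and −1.04 (hESEV minus EXOs). The cause was not tested. Of the 6 RNAs higher in MVs, FOXD3-AS1, MIF-AS1 and PITPNA-AS1 kept the call in every alternative that measured them. ZNF232-AS1 lost it without any 1 of the MVs arrays, by the adjusted t-test and without _x_at and _s_at probe sets. ATP2A1-AS1 lost it by the adjusted t-test, and EPB41L4A-AS1 on the average of its probe sets. Signal over background limits these results, since the 6 RNAs higher in MVs lay under the background level in EXOs, and 18 of the 29 RNAs higher in EXOs lay under the background level in all groups.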
